A study of Mus musculus with 48 samples.

Results

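The cytosolic ribosomal protein genes encode the proteins of the large (Rpl) and the small (Rps) subunit of the ribosome that translates messages in the cytoplasm. Members were all genes with a platform symbol of Rpl or Rps, digits and at most 1 letter of a, l, x or y, together with Rplp0, Rplp1, Rplp2 and Rpsa, and probesets with more than 1 symbol were left out. The rule found 46 genes of 18193, 24 of the large and 22 of the small subunit, with 100 of 45037 probesets, and each gene was followed by its probeset with the highest mean over all 48 arrays. Adult male C57BL/6J mice, 48 in all and housed singly, each gave hippocampal (HPC) RNA to a single Affymetrix whole-genome mouse array, and 8 groups of 6 mice were formed by treatment and time. CIE mice had chronic intermittent ethanol: vapor at 10 to 13 mg/l air for 16 h per day on 4 days, then 7 days of abstinence, in 4 cycles, with an injection of ethanol (1.6 g/kg) and pyrazole (1 mmol/kg) before each exposure. Ctrl mice were kept in the same way in air and were given saline and pyrazole, so pyrazole, an inhibitor of alcohol dehydrogenase, was common to both. The harvest followed the end of the last session by 0 h, 8 h, 72 h or 7 d. All values are log2 signals, and a difference is CIE minus Ctrl on the log2 scale unless another is named. The mice were separate animals, so the spread within a group is that between mice.

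Each ribosome carries 1 copy of nearly every one of these proteins, and surplus copies are degraded, so the genes are known for being expressed together at high levels in all tissues. Their messages typically begin with a C followed by a run of C and U, the TOP element (terminal oligopyrimidine), through which mTORC1 sets their translation when growth signals change. In neurons, ribosomal protein messages are also carried into dendrites and axons. A few members are paralogs with restricted or distinct use: Rpl3l is known from muscle, Rpl39l from testis, Rps27l as a target of p53, and Rps4l as a relative of the X-linked Rps4x. No probeset named Rpl10l alone was found.

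The signals of the members fell into a high block and a scattered rest. In 33 of 46 genes the mean signal was above 12, and the highest means belonged to Rps29 (14.07), Rpl37a (13.73), Rpl38 (13.71), Rpl41 (13.60) and Rps28 (13.57). Only 634 of 18193 genes reached that signal. The lowest means were those of Rps16 (3.39), Rpl3l (4.08), Rpl39l (4.64), Rpl39 (7.12) and Rpl27a (7.38), and 3 of these were below 5. A probeset's signal depends on its probes, so these values order probesets, not messages, and a core protein gene such as Rps16 can lie at the bottom of the array. The array's highest single value was 14.24. Probesets of the x_at or s_at type, whose probes can match related genes or pseudogenes, stood for 14 of the 46 members, 12 of them x_at, and signals of those genes cannot be assigned to 1 locus with certainty.

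The high-signal members varied little between mice. The SD within groups had a median of 0.052 over the 33 genes above 12, with a range of 0.027 to 0.094, against 0.073 over all genes above 12 and 0.13 over all genes. For the other 13 members the median was 0.13. Within groups the members also deviated together from mouse to mouse: the mean pairwise correlation over 48 arrays was 0.41 among the 33 genes, 0.17 among the others and 0.012 among all genes above 12. These correlations describe values that share arrays and their normalization, and counts over the members are therefore not counts of independent genes.

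To show how the transcription starts of these genes look, RefSeq promoter windows (GRCm38.p6, 250 bases before to 50 after a start) were read. They were found for 40 of 46 members, in 48 windows, and were not found for Rps4l, Rps14, Rps29, Rpl8, Rps20 and Rpl7. In 8 of 48 windows the start base was a C within a run of at least 5 C or T from the start on (16.7%), against 2.51% of all 32851 windows. Starts of Rpl27a, Rpl7a and Rps24 opened runs of 16, 7 and 6 with a T and are not in this count. Whether an annotated start is the one used in hippocampus was not tested, so the count is not one of members with a TOP element. These 8 starts are shown because they carry the letters of the TOP element at the annotated start, with 10 bases before and 20 from the start base on, and capitals mark the run.
Rpl14, chr9:120571507-120571536, plus strand: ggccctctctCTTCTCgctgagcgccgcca
Rpl35, chr2:39005112-39005141, minus strand: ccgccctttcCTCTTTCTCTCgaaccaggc
Rpl38, chr11:114668570-114668599, plus strand: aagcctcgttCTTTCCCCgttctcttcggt
Rplp2, chr7:141447641-141447670, plus strand: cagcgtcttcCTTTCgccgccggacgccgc
Rps10, chr17:27635225-27635254, minus strand: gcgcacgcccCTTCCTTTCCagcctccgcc
Rps18, chr17:33955646-33955675, minus strand: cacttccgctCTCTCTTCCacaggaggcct
Rps27, chr3:90213629-90213658, minus strand: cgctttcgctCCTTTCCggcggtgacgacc
Rps6, chr4:86857348-86857377, minus strand: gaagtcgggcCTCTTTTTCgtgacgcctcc
The annotated starts of Rps19, Rpl19 and Rps25, the members whose values are described most closely below, did not carry such a run, and all their listed starts are printed so that they can be set beside the 8.
Rps19, chr7:24884582-24884611, plus strand: aatctcgcgagactcgacgcccgacttgtg
Rps19, chr7:24884666-24884695, plus strand: cggtgagtgagggctctgggtcgcggctgt
Rps19, chr7:24884903-24884932, plus strand: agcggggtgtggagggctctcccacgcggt
Rpl19, chr11:98026700-98026729, plus strand: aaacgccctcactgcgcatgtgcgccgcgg
Rpl19, chr11:98026914-98026943, plus strand: tctccccttcgcagataatgggcggagcct
Rps25, chr9:44407704-44407733, plus strand: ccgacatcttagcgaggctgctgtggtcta
Motifs were searched on both strands of the 48 windows, of which CCGGAAG and AAGATGG can share 3 letters. CCGGAAG, the letters of an ETS family site, was in 41.7% of member windows (20 genes) and in 8.86% of all windows. CGCGAGA was in 20.8% against 2.56%, AAGATGG, the core of a YY1 site, in 14.6% against 6.34%, GGGCGG, the GC box bound by Sp1, in 50% against 35.7%, and TATAAA in 10.4% against 13.6%. Windows of 30 bases with CCGGAAG or its reverse complement in capitals are shown for 6 members described here, because these letters were in more member windows than the other searched sites except GGGCGG. A match describes letters, not binding.
Rpl19, chr11:98026660-98026689, plus strand: acttagcgtgaCTTCCGGctacccagagga
Rpl35, chr2:39005240-39005269, minus strand: ggaaggcaggaCTTCCGGgaagcggagggc
Rpl38, chr11:114668549-114668578, plus strand: gggttaaccgtCCGGAAGcggaagcctcgt
Rplp2, chr7:141447532-141447561, plus strand: gaaatgtcttcCTTCCGGtgcacccttttc
Rps10, chr17:27635255-27635284, minus strand: agccgcgcagcCCGGAAGagacgctgcgcc
Rps25, chr9:44407630-44407659, plus strand: cacccattgccCCGGAAGtactctctcgag

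Immediately after the last session, at 0 h, the ribosomal protein genes of CIE and Ctrl mice were close together. The mean was higher in CIE mice in 30 of 46 genes (65.2%) and lower in 16, where 65.3% of all genes were higher. The members' median difference was 0.013, and that of all genes was 0.041. None of the 46 passed the limma test at an FDR of 0.01, where 1.64% of all genes did, and 3 had an unadjusted p under 0.05, where 18.6% of all genes had one. Of the 3, 1 was higher (14.2% of all genes) and 2 were lower (4.41%). They were Rps27, a small subunit protein with a zinc finger, higher by 0.12 ± 0.049 (SE, adjusted p = 0.14), Rpl12, a protein at the base of the ribosomal stalk, with a difference of -0.20 ± 0.091 (adjusted p = 0.20), and Rps28, with -0.072 ± 0.030 (adjusted p = 0.16). Larger but more variable differences were those of Rpl39l (0.30 ± 0.16) and Rpl27a (0.26 ± 0.14). Below 0 lay also Rps6 (-0.12 ± 0.059), the S6 kinase substrate of the small subunit, and Rps25 (-0.089 ± 0.093).

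**Figure D1:**
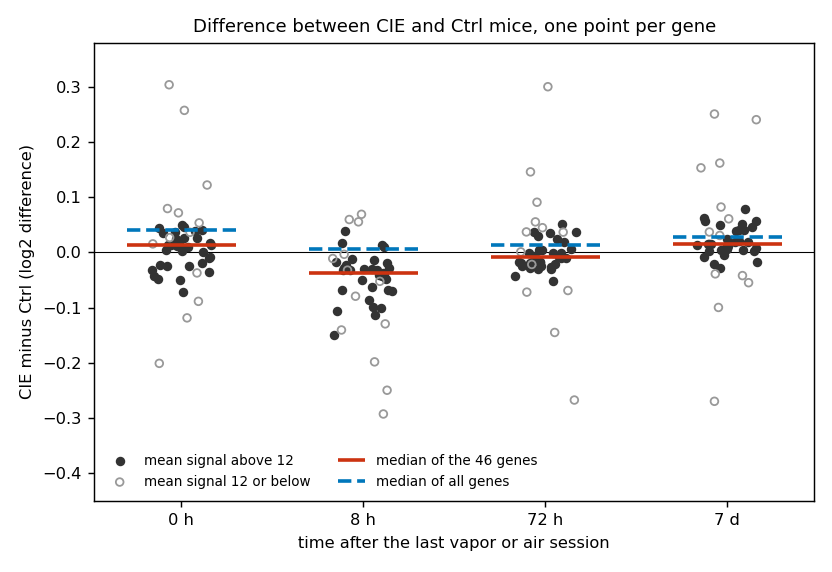
Difference between CIE and Ctrl mice (log2, vertical axis) at the 4 times, 1 point per gene, filled for the 33 genes with a mean signal above 12 and open for the other 13. Red lines are the medians of the 46 genes and dashed blue lines those of all 18193 genes, and the members' median is at 0.013, -0.038, -0.0074 and 0.016 in order of time.

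At 8 h, most ribosomal protein genes had slightly lower signals in CIE mice. The mean was lower in 39 of 46 genes (84.8%), where 48.0% of all genes were lower, and the members' median difference was -0.038 against 0.0057 for all genes. No member passed the limma test at an FDR of 0.01, while 2.29% of all genes did. At an FDR of 0.05, 2 members passed, Rps19 and Rpl19, both lower in CIE mice, where 2.25% of all genes were lower at that FDR. Neither held in every fit: the adjusted p of Rps19 was above 0.05 without replicate 79 of Ctrl (adjusted p = 0.076) or 21 of CIE (0.063), and that of Rpl19 without any 1 of 7 of the 12 mice (replicates 8, 32, 66 and 79 of Ctrl and 21, 25 and 41 of CIE, up to 0.088). With only the 12 mice of 8 h in the fit the adjusted p were 0.070 and 0.15, and with the array sets as a block 0.040 and 0.057. An unadjusted p under 0.05 was found in 11 members (23.9%) and in 18.4% of all genes. All 11 were lower, where 8.91% of all genes were lower at that p and 9.51% higher. Of the 33 genes above 12, 29 were lower, with a median of -0.037, where 54.4% of all genes with such signals were lower and their median was -0.011. Both subunits had this sign: 20 of 24 large subunit genes were lower (median -0.031) and 19 of 22 small subunit genes (median -0.045).

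Rps19, a small subunit protein whose gene is mutated in Diamond-Blackfan anaemia, had the smallest adjusted p at 8 h. Its signals in CIE mice were 12.59 at the lowest, 12.69 at the median and 12.73 at the highest, and those in Ctrl mice were 12.77, 12.80 and 12.93. All 6 CIE mice thus lay below all 6 Ctrl mice. The difference was -0.15 ± 0.040 (SE), 1.11-fold lower, with an adjusted p of 0.018 in the limma fit. At the other times the groups overlapped, with differences of 0.016 at 0 h, -0.011 at 72 h and 0.002 at 7 d (SE 0.040 each).

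Rpl19, a large subunit protein at the contact between the subunits, was at 13.13, 13.17 and 13.21 (lowest, median, highest) in CIE mice 8 h after the session. Ctrl mice were at 13.23, 13.27 and 13.30, so again the groups did not overlap. The difference was -0.10 ± 0.029 (SE, adjusted p = 0.032). It was 0.011 at 0 h, -0.052 at 72 h and -0.009 at 7 d.

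Another member without overlap at 8 h was Rplp2, an acidic protein of the stalk that recruits elongation factors. CIE mice had 13.41, 13.51 and 13.51 and Ctrl mice 13.52, 13.56 and 13.60, a difference of -0.071 ± 0.028 (SE, adjusted p = 0.15). The highest CIE mouse (13.5141) and the lowest Ctrl mouse (13.5158) were nearly level. Groups that did not overlap, with CIE lower, were thus seen in 3 of 46 members, where 1.74% of all genes had this, and no member had it with CIE higher (1.87% of all genes). At 0 h, 72 h and 7 d, no member had groups that did not overlap (CIE lower in 0.346%, 0.451% and 0.214% of all genes, CIE higher in 1.28%, 0.731% and 1.13%).

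Rpl35, named after its values were seen as were Rps19, Rpl19 and Rplp2, is measured by 6 probesets. The one with the highest mean gave -0.11 ± 0.037 at 8 h (SE, adjusted p = 0.087), with CIE mice at 12.78, 12.83 and 12.91 and Ctrl mice at 12.88, 12.94 and 13.00, which overlap. Its other 5 probesets gave differences from -0.24 to -0.082 at 8 h, all below 0, with adjusted p from 0.049 to 0.30. The largest differences among all members at 8 h were found at moderate signals, in Rps4l (-0.29 ± 0.10, adjusted p = 0.089), Rps25 (-0.25 ± 0.093, adjusted p = 0.12) and Rpl14 (-0.20 ± 0.076, adjusted p = 0.13). The 3 highest were Rpl39 (0.069 ± 0.051), a protein of the exit tunnel, Rpl39l (0.060 ± 0.16) and Rps16 (0.055 ± 0.061), all with lower signals and none past an unadjusted p of 0.05.

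Further small subunit genes with an unadjusted p under 0.05 at 8 h, chosen after their values were seen, were Rps9 (-0.11 ± 0.053), Rps26 (-0.10 ± 0.041), Rps15 (-0.069 ± 0.033) and Rps10 (-0.067 ± 0.033). Rps26, a protein that lies near the path of the message, was at 12.76, 12.87 and 12.91 in CIE mice and at 12.88, 12.96 and 13.01 in Ctrl mice, with an overlap of the ranges. Rps25 was at 8.51, 8.69 and 8.73 in CIE mice at 8 h and at 8.71, 8.93 and 9.07 in Ctrl mice, so that the ranges overlapped. CIE replicates 23 and 41 lay above the lowest Ctrl mouse. Rpl14 was at 7.70, 7.83 and 7.99 against 7.89, 8.02 and 8.18.

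By the probesets followed, the 5 members with the highest signals had small differences at 8 h, none with an unadjusted p under 0.05. Rps29, a zinc-binding protein of the small subunit, was at 14.02, 14.04 and 14.07 in CIE and at 14.06, 14.07 and 14.12 in Ctrl mice, a difference of -0.038 ± 0.029. The large subunit genes Rpl37a, Rpl38, which is known for its part in translating Hox messages, and Rpl41, the smallest ribosomal protein, differed by -0.048 ± 0.031, -0.020 ± 0.029 and -0.031 ± 0.036. Further probesets of Rpl41, with lower signals, gave -0.25, -0.26 and -0.075 at 8 h (limma, adjusted p = 0.18, 0.038 and 0.28). Rps28 lay on the other side, with 13.54, 13.56 and 13.60 in CIE mice against 13.51, 13.52 and 13.56 and a difference of 0.039 ± 0.030 (adjusted p = 0.55). Rplp0, the core of the stalk, was among the 7 genes above 0 (0.014 ± 0.056), while its partner Rplp2 was among the 39 below 0.

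**Figure D2:**
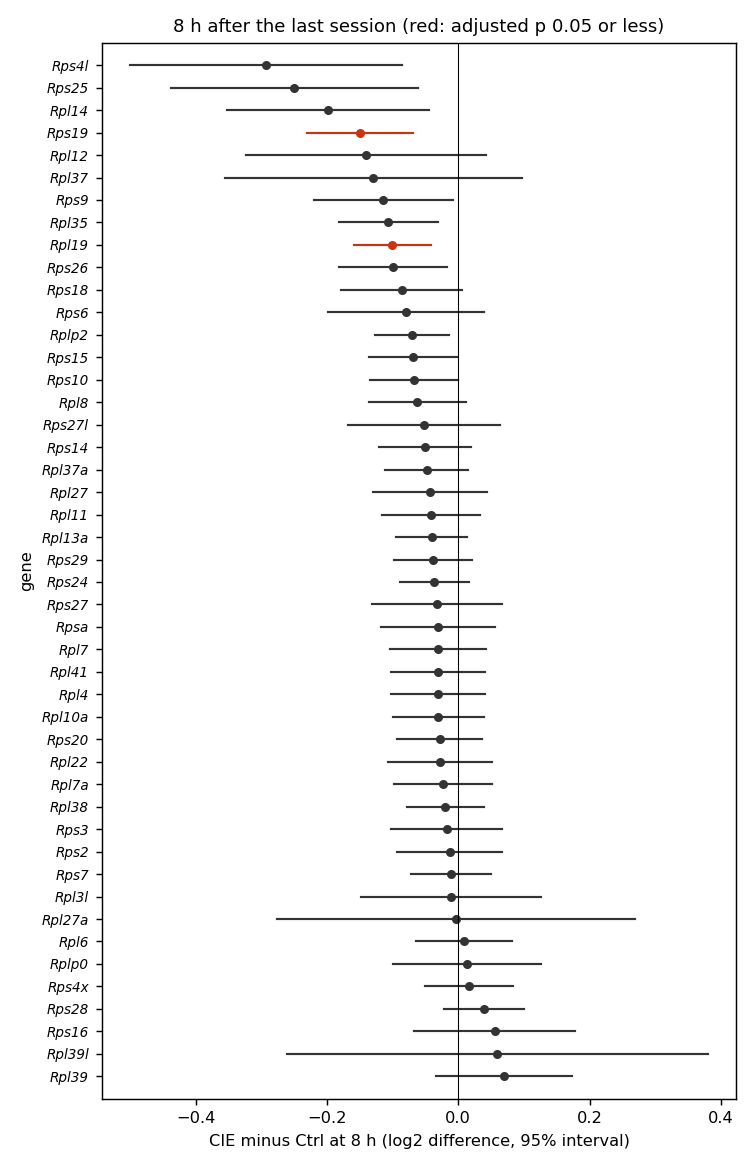
Difference between CIE and Ctrl mice at 8 h for each of the 46 genes (log2, horizontal axis) with its 95% interval from the limma fit, ordered by size, and red for an adjusted p of 0.05 or less. 39 of 46 points lie below 0, and the intervals of 11 genes, Rps19 and Rpl19 among them, lie wholly below 0.

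A split by the annotated start base, which is not a split by the TOP element itself, did not separate the members in sign at 8 h. Rpl27a, Rpl7a and Rps24, with runs that open with a T, are among the other matched members. All 8 genes with a C start and a run of C or T printed above were lower in CIE mice, with a median of -0.075, and 25 of the 32 other matched members were lower, with a median of -0.031. In the comparisons of 0 h, 72 h and 7 d, 4, 4 and 7 of the 8 were higher, with medians of 0.0026, -0.012 and 0.025. Of the 32 other matched members, 22, 14 and 25 were higher at these times, with medians of 0.013, -0.0017 and 0.015. Neither Rps19 nor Rpl19 is among the 8.

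The mean over the 46 genes was taken in each mouse as a description. In CIE mice at 8 h it was 11.52 at the lowest, 11.57 at the median and 11.60 at the highest, and in Ctrl mice at 8 h 11.57, 11.62 and 11.68, so that the ranges overlapped. The 8 group means lay between 11.57, in CIE mice at 8 h, and 11.63, in CIE and Ctrl mice at 72 h. In the 33 genes above 12, CIE mice at 8 h had a mean of 13.11 ± 0.033 (SD, n = 6) and Ctrl mice 13.15 ± 0.033. The arrays formed 6 sets that shared exactly equal values, which left 1 Ctrl mouse of 0 h outside. Within each of the 6 sets, the member mean at 8 h was lower in CIE than in Ctrl mice, with differences from -0.13 to -0.0035. At 0 h it was lower in 2 of 5 sets, at 72 h in 3 of 6 and at 7 d in 2 of 6.

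**Figure D3:**
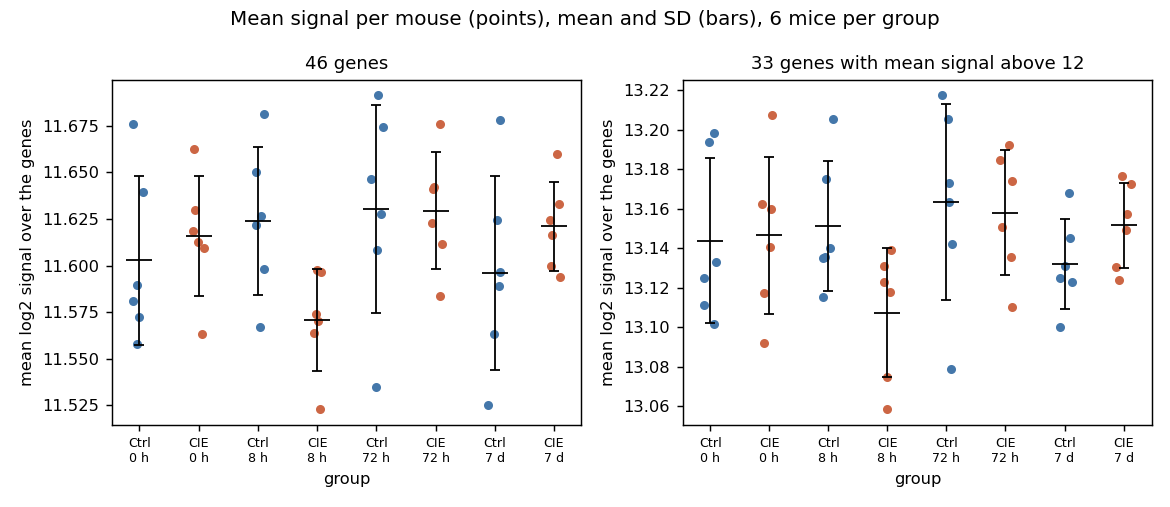
Mean log2 signal over the 46 genes (left) and over the 33 genes with a mean signal above 12 (right) in each mouse, by group. Points are mice and bars the group mean and SD of 6 mice, and the CIE mice of 8 h have the lowest group mean in both panels.

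At 72 h, members were spread on both sides of 0. The mean was higher in CIE mice in 18 genes and lower in 28 (60.9%), where 43.4% of all genes were lower. The members' median was -0.0074 against 0.013 for all genes. None passed at an FDR of 0.01 in the limma fit (0.0055% of all genes did), and 1 had an unadjusted p under 0.05 (7.57% of all genes), which was Rps4l, lower in CIE mice (2.5% of all genes), with -0.27 ± 0.10 (adjusted p = 0.35). Rpl39l (0.30 ± 0.16), Rpl12 (0.15 ± 0.091) and Rps25 (0.091 ± 0.093) were the highest, and Rpl27a (-0.15 ± 0.14) and Rps27 (-0.072 ± 0.049) followed Rps4l at the low end.

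At 7 d, 36 of 46 members had a higher mean in CIE mice (78.3%), where 61.3% of all genes did, with a median of 0.016 against 0.028. No member passed at an FDR of 0.01 (1.03% of all genes), and 2 had an unadjusted p under 0.05 (18.7% of all genes), Rps27l and Rps4l, both higher (14.2% of all genes). Rps27l was at 10.72, 10.83 and 10.91 in CIE mice and at 10.47, 10.70 and 10.81 in Ctrl mice, which overlap. Its difference was 0.16 ± 0.058 (SE, adjusted p = 0.085), and its other 2 probesets gave 0.14 and 0.12. Within all 6 array sets it was higher in CIE mice, by 0.023 to 0.44. Its counterpart Rps27 differed by 0.031 ± 0.049. Rpl39l (0.25 ± 0.16) and Rps4l (0.24 ± 0.10, adjusted p = 0.16) were highest, and Rpl27a (-0.27 ± 0.14), Rps25 (-0.10 ± 0.093) and Rpl3l (-0.055 ± 0.068) were lowest.

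Rps4l was the member with the smallest adjusted p over the 4 times together (limma moderated F, adjusted p = 0.018), and no member passed at an FDR of 0.01 there, while 6.23% of all genes did. With an unadjusted p under 0.05 there were 5 members (27.8% of all genes). In CIE mice its group means were 10.23, 9.96, 10.07 and 10.28 at 0 h, 8 h, 72 h and 7 d, and in Ctrl mice 10.20, 10.25, 10.34 and 10.04. CIE mice were thus lower in the middle of the course and Ctrl mice at its end, and the ranges overlapped at every time. At 8 h CIE mice were at 9.73, 9.96 and 10.18 and Ctrl mice at 9.93, 10.27 and 10.48. Its paralog Rps4x differed by 0.001, 0.016, 0.051 and -0.021 at the 4 times (SE 0.033).

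**Figure D4:**
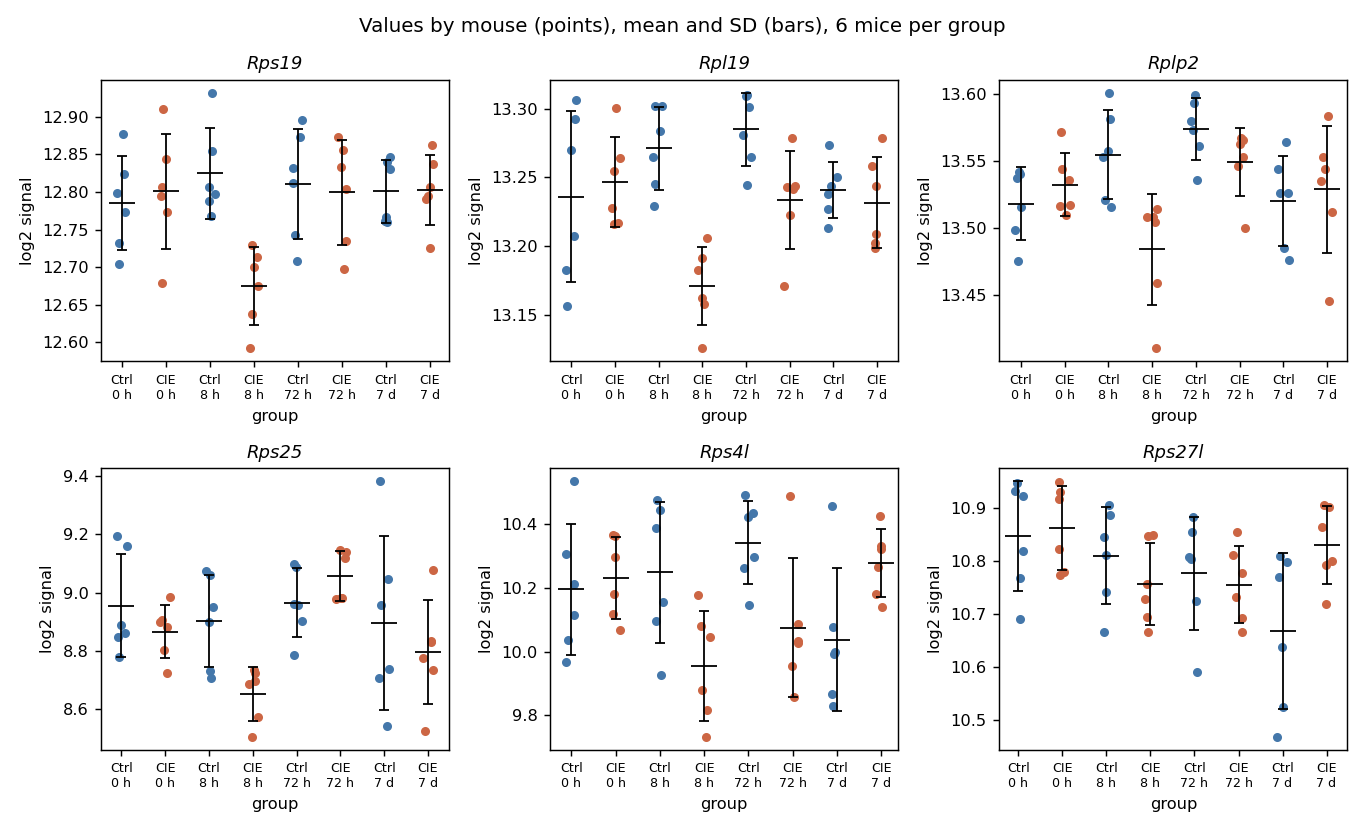
Log2 signals of Rps19, Rpl19, Rplp2, Rps25, Rps4l and Rps27l in each mouse (vertical axis) by group, blue for Ctrl and orange for CIE. Points are mice and bars the mean and SD of 6 mice, and the CIE mice of 8 h lie below all Ctrl mice of 8 h for Rps19, Rpl19 and Rplp2.

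The 13 members at or below a signal of 12 varied more between mice, and their differences had wide errors. Rpl39l, the testis-associated paralog of Rpl39, was above 0 at all 4 times, and at 0 h its signals were 4.30, 4.83 and 5.25 in CIE mice and 4.13, 4.49 and 4.87 in Ctrl mice. Rpl27a, a large subunit gene, went from 0.26 at 0 h to -0.27 at 7 d, where CIE mice were at 7.18, 7.38 and 7.54 and Ctrl mice at 7.35, 7.55 and 8.12. Rpl12 went the other way, from -0.20 at 0 h, with 7.96, 8.23 and 8.41 in CIE mice against 8.24, 8.42 and 8.54, to 0.15 at 7 d. None of these passed, and the ranges overlapped in each. Rpl39 was above 0 at all times, from 0.054 to 0.082 (SE 0.051), and Rpl3l and Rps16, at 4.01 to 4.17 and 3.33 to 3.45 over the 8 group means, lay on both sides of 0.

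The intervals of the fit bound differences in signal, not in message. How the signal follows the message near the top of the array's range, where these genes lie, was not tested. For all 33 genes above 12, the 95% interval of the difference lay within 0.25 of 0 at each of the 4 times. The lowest and the highest bound among them were -0.16 and 0.12 for 0 h, -0.23 and 0.13 for 8 h, -0.13 and 0.14 for 72 h, and -0.10 and 0.17 for 7 d. Of all 46 members, the interval was within 0.25 in 41, 39, 40 and 39 at the 4 times in order.

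Whether the CIE difference itself changed with time was tested as the difference between neighbouring times. From 0 h to 8 h it was lower at the later time in 38 of 46 members (60.5% of all genes), with a median of -0.068 against -0.036 for all genes. From 8 h to 72 h it was higher in 37 (52.2% of all genes), with a median of 0.038 against 0.0069. From 72 h to 7 d it was higher in 33 (54.1% of all genes), with a median of 0.027 against 0.011. No member passed the limma test of any of these changes at an FDR of 0.01 (0.033%, 0.011% and 0% of all genes did), and 8, 4 and 2 had an unadjusted p under 0.05 (12.2%, 9.18% and 10.1% of all genes). For Rps19 the change from 0 h to 8 h was -0.17 ± 0.057 (SE, adjusted p = 0.19).

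Between the times, the members were also followed within the CIE mice and within the Ctrl mice. From 0 h to 8 h, CIE mice had lower means in 40 of 46 genes (44.6% of all genes), with a median of -0.039 against 0.015 for all genes. No member passed at an FDR of 0.01 in the limma fit (2.95% of all genes), and 9 had an unadjusted p under 0.05 (22.1% of all genes), all lower (9.6% of all genes), with Rps19 at -0.13 ± 0.040 (SE, adjusted p = 0.043). From 8 h to 72 h, CIE mice had higher means in 41 of 46 (54.0% of all genes), with a median of 0.044 against 0.011. Here 1 member was called, Rps25, which was higher (3.17% of all genes were called and 1.25% were called higher). At that step 12 members had an unadjusted p under 0.05 (22.3% of all genes), all higher, where 13% of all genes were higher at that p. From 72 h to 7 d, 30 were lower (65.2%, and 60.6% of all genes), with a median of -0.0075 against -0.023 for all genes. No member was called (0.0165% of all genes) and 1 had an unadjusted p under 0.05 (10.1% of all genes), a lower one (7.17%). The comparisons that contain the CIE mice of 8 h share those 6 arrays and do not count as separate evidence.

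Rps25, a small subunit protein needed for initiation at several internal ribosome entry sites, was thus the only member past the FDR of 0.01 in the 14 comparisons. In CIE mice its signals were 8.51, 8.69 and 8.73 at 8 h and 8.98, 9.05 and 9.15 at 72 h (lowest, median, highest), so that all 6 mice of 72 h lay above all 6 of 8 h. It rose by 0.40 ± 0.093 (SE, 1.32-fold, adjusted p = 0.0047). This call was lost with the array sets as a block (adjusted p = 0.012) and without any 1 of 5 of the 12 mice: replicates 21 and 25 of CIE at 8 h and replicates 3, 61 and 71 of CIE at 72 h, with adjusted p from 0.014 to 0.018. In Ctrl mice, Rps25 was at 8.71, 8.93 and 9.07 at 8 h and 8.79, 8.96 and 9.10 at 72 h, a step of 0.063 ± 0.093. The test of the CIE step against the Ctrl step gave 0.34 ± 0.13 (SE, adjusted p = 0.40).

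In Ctrl mice, the members differed most between 72 h and 7 d, by the median of their differences. From 0 h to 8 h 29 were higher (69.1% of all genes) and from 8 h to 72 h 28 were higher (51.6%). From 72 h to 7 d 35 were lower (66.8% of all genes). The medians were 0.024, 0.014 and -0.034, against 0.050, 0.0033 and -0.039 for all genes. No member was called in these limma comparisons (0.456%, 0.137% and 0.0989% of all genes), and 2, 0 and 6 had an unadjusted p under 0.05 (17.4%, 7.34% and 15.2% of all genes). The 6 were all lower at 7 d, and the share of all genes lower at that p was not counted for this step.

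**Figure D5:**
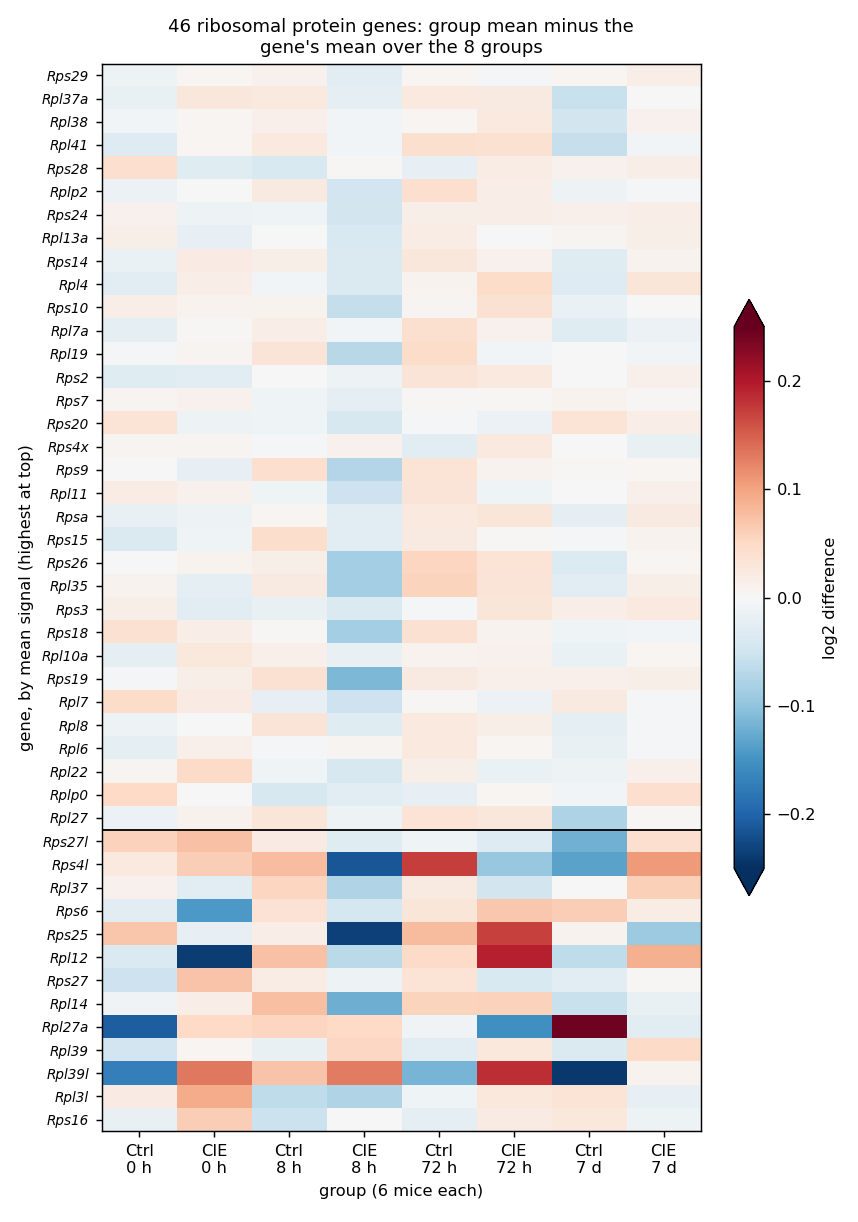
Group mean of each of the 46 genes minus the gene's mean over the 8 groups (colour, log2), with genes ordered by mean signal and the line under the 33 genes above 12. Above the line the column of CIE mice at 8 h is blue in most genes, and below it the deviations are larger and run in both directions.

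Other probesets of the same genes were examined because a gene was followed by 1 probeset only. Of the 54 further probesets of members, 43 were lower in CIE mice at 8 h (median -0.046), and so were 89 of the 110 probesets with several symbols of which at least 1 met the rule (median -0.047). At 0 h, 31 of the 54 and 60 of the 110 were lower, at 72 h 31 and 61, and at 7 d 16 and 54. A further probeset of Rps6 was called at 0 h, higher in CIE mice by 0.29 ± 0.071 (SE, adjusted p = 0.0091), while the brighter one gave -0.12, so the gene's probesets disagreed in sign. A further probeset of Rpl41 was called between 8 h and 72 h in CIE mice (0.33 ± 0.077, adjusted p = 0.0050), where the brightest gave 0.046. The gene's other further probesets gave 0.39 and 0.12 at that step (limma, adjusted p = 0.017 and 0.041). A further probeset of Rpl27 was called over the 4 times (adjusted p = 0.00015), with differences of -0.19, -0.19, -0.17 and -0.13 at 0 h, 8 h, 72 h and 7 d, where the brightest gave 0.024, -0.044, -0.0058 and 0.079. The remaining probeset of Rpl27 gave -0.16, -0.055, -0.056 and -0.12 at these times. None of the 54 was called at 8 h, 72 h or 7 d, and 2 of the 110, which are left unnamed, were called at 8 h, both lower. These counts are 1.85% of the 54 at 0 h, 1.82% of the 110 at 8 h, and 1.85% and 3.7% of the 54 for the step from 8 h to 72 h and over the 4 times. Over all 45037 probesets the shares called were 1.92%, 2.15%, 2.62% and 7.67%, so none of the counts is above its background.

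Other genes of the making and use of ribosomes were read from companion lists. Of 4 measured relatives outside the rule (Fau, Rpl22l1, Rps3a1 and Rpl7l1), all 4 were lower in CIE mice at 8 h (median -0.073), with Fau at -0.087 ± 0.032 (SE, adjusted p = 0.10), and none was called at any time. Elongation factors (9 measured) had 1 call, Eef1a1, which delivers aminoacyl-tRNA, at 8 h and higher by 0.11 ± 0.026 (SE, adjusted p = 0.0079). Of the initiation factors (39), Eif5 was called at 8 h by 2 of its 5 probesets, the brightest being higher by 0.19 ± 0.039 (SE, adjusted p = 0.0016). The medians of these 2 lists at 8 h were 0.038 and 0.040, above 0, against 0.0057 for all genes. Each list thus had 1 called gene at 8 h, where 2.29% of all genes were called. Neither list had a call at 0 h, 72 h or 7 d. No gene was called at any time among 12 other genes with TOP messages (median at 8 h 0.012), 44 ribosome biogenesis genes (-0.0090), 11 RNA polymerase I genes (-0.0083) and 20 genes of signalling to the ribosome (-0.0034).

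Genes of the mitochondrial ribosome, a separate particle that translates mitochondrial messages, were lower in 57 of 76 cases at 8 h (median -0.056). The share of all genes that were lower then was 48.0%. At 0 h, 72 h and 7 d, 46, 58 and 45 of the 76 were lower (34.7%, 43.4% and 38.7% of all genes). Called were Mrpl21 and Mrps28 at 0 h, with differences of -0.20 ± 0.039 and -0.20 ± 0.046 (SE, adjusted p = 0.0014 and 0.0062), and Mrpl24 at 8 h, with -0.14 ± 0.033 (SE, adjusted p = 0.0082). For Mrpl21, 1 of its 3 probesets was called. Of all genes, 1.64% were called at 0 h and 2.29% at 8 h. None of the 76 was called at 72 h or 7 d (0.0055% and 1.03% of all genes), and none was called higher.

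Cell type markers were read beside these values, because in a tissue piece fewer cells of a type and less RNA per cell cannot be told apart. The 6 markers of hippocampal excitatory neurons had mean signals of 9.06 to 12.04 and were not called. All arrays were labelled hippocampus, so without another tissue these signals do not check the dissection. At 8 h, when the members were low in CIE mice, all 5 oligodendrocyte markers were above 0 (median 0.18, none called), with list means of 10.94 to 11.43 in CIE and 10.64 to 11.33 in Ctrl mice. The astrocyte transporter Slc1a2 was called higher at 8 h (0.20 ± 0.046, adjusted p = 0.0055) while 3 of the 6 astrocyte markers were below 0, and the nuclear RNA Neat1 was called higher by 0.56 ± 0.10 (adjusted p = 0.00045), 1 of 3 such RNAs. These calls were made by 1 of the 5 probesets of Slc1a2 and 1 of the 2 of Neat1. Both blood markers were below 0 at 8 h (median -0.28, none called), with list means of 5.06 to 5.42 in CIE and 5.38 to 5.55 in Ctrl mice. Neuronal, endothelial, microglial, precursor and choroid plexus lists had no call at 8 h, with medians of 0.046, 0.056, 0.050, -0.031 and -0.030. Their part in the members' differences was not tested.

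At 0 h, Otx2 of the choroid plexus was called lower (-1.21 ± 0.28, adjusted p = 0.0074), while 2 of the 5 markers of its list were above 0 (median -0.13). Its signals were low, at 3.56, 3.71 and 3.87 in CIE mice (lowest, median, highest). Ctrl mice were at 3.51, 4.76 and 7.23, so their range held that of the CIE mice. The spread was unequal, with an SD of 0.13 in CIE and 1.34 in Ctrl mice. All 5 oligodendrocyte markers (median -0.083) and both blood markers (-0.27) were below 0 at that time and all 3 precursor markers above 0 (0.20), with no call. At 7 d, Kl of the choroid plexus (1.05 ± 0.22, adjusted p = 0.0038) and Tmem119 of microglia (0.40 ± 0.091, adjusted p = 0.0073) were higher in CIE mice, with 4 of 5 genes of either list above 0 (medians 0.14 and 0.25). For Kl, 1 of its 2 probesets was called. Whole lists lay on 1 side of 0 at 7 d with no call: all 6 hippocampal excitatory neuron markers (median 0.25), all 6 astrocyte markers (0.19), all 5 endothelial markers (0.18) and both blood markers (0.18) were above 0, and all 5 oligodendrocyte markers below 0 (-0.15). Drd1, a striatal marker, was lower at 7 d with a difference of -1.43 ± 0.30 (adjusted p = 0.0040), and all 3 measured striatal markers were below 0, with list means of 6.51 to 7.02 in CIE and 6.99 to 8.96 in Ctrl mice. For Drd1, 1 of its 2 probesets was called. No marker was called at 72 h, when all 5 oligodendrocyte (-0.083), all 5 microglial (-0.12) and all 3 precursor markers (-0.15) were below 0. Their part in the members' values at these times was likewise not tested.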

How the data were processed

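The authors deposited log2 expression values made with robust multi-array average (RMA, version not given in the sources used here) and, by the study's methods, adjusted for hybridization batch with ComBat. No label gives the batch. The log2 values were used as deposited, and the number of arrays limits their precision. Array medians were 6.601 to 6.627.

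Probesets were named from the platform annotation. Of 45037, 34945 had 1 symbol, 932 several and 9160 none. All 48 arrays entered 1 limma fit of the 8 group means (lmFit and eBayes of version 3.58.1 under R 4.3.3), tested on simulated data. P-values were two-sided and adjusted by Benjamini-Hochberg over all probesets, and a call was made at an FDR of 0.01 or less, as in the study's methods. Values after ± are SE of the fit unless named SD. Percentages of all genes refer to 18193 genes with 1 probeset each.

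Members, companion lists and marker lists were chosen with earlier results of these data known. Named were members called in any comparison, the 3 highest and 3 lowest differences at each time, the 5 highest and 5 lowest signals, the paralogs, and up to 3 called genes per companion list and time. Members named by an unadjusted p or by groups that did not overlap were chosen after their values were seen. Alternatives were only the groups of a comparison, the array sets as a block, renewed quantile normalization, median centring, probesets not of the x_at or s_at type, dim probesets left out, a call at 0.05, and each mouse left out.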

Additional observations from a re-analysis of the deposited data

Results flagged for a closer look

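Of 56 groups of 6 mice examined for a single distant value (the member mean and 6 members in 8 groups), 1 was found. By chance about 1 group in 20 is flagged, so 1 among 56 groups is not more than chance gives. Rps4l was at 10.49 in replicate 35 of the CIE mice of 72 h, while the other 5 mice lay between 9.86 and 10.09, and the gap was 0.639 of the range, where 0.625 is the critical value for 6.

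Signals outside the probesets followed were called in 3 cases in the CIE minus Ctrl comparisons of single times. A further probeset of Rps6, with a mean signal of 6.00, was higher by 0.29 in CIE mice at 0 h (adjusted p = 0.0091). Among probesets with several symbols, 1 with a mean signal of 12.47 differed by -0.21 at 8 h (adjusted p = 0.0054) and 1 with a mean signal of 8.69 by -0.39 (adjusted p = 0.0011). The second of these was also called over the 4 times together (adjusted p = 0.00031), as were another with several symbols (0.0072) and the further probesets of Rps6 (0.0029) and Rpl27 (0.00015).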

How the results depend on the processing

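No member was called in the CIE minus Ctrl comparisons at 0 h, 72 h or 7 d under any alternative run. At 8 h, 1 member (Rps19) was called with dim probesets left out and 2 (Rps19 and Rpl19) with a call at 0.05. A call at 0.05 also gave 1 member in CIE mice from 0 h to 8 h (Rps19) and 1 over the 4 times (Rps4l). Over the 4 times, leaving out 1 mouse gave 0 to 1 calls, Rps4l without replicate 38 of Ctrl 0 h, 66 of Ctrl 8 h, 70 of Ctrl 7 d or 35 of CIE 72 h. In CIE mice from 8 h to 72 h there were 0 calls with the array sets as a block and 0 to 1 with a mouse left out. Leaving out 1 mouse gave a members' median of 0.00097 to 0.023 at 0 h, of -0.046 to -0.031 at 8 h, of -0.029 to 0.0045 at 72 h and of 0.0058 to 0.027 at 7 d. The difference of Rpl39l at 8 h changed sign without replicate 42 (-0.0089) or 66 (-0.034) of Ctrl or replicate 41 of CIE (-0.026), with a range of -0.034 to 0.15 over the mice left out. The cause of these shifts was not tested. Over all genes, leaving out 1 mouse moved the count of calls to 109 to 476 at 0 h (298 with all mice), 253 to 563 at 8 h (417), 0 to 7 at 72 h (1) and 21 to 529 at 7 d (187). With only the compared groups in the fit these counts were 21, 161, 0 and 0, and with the array sets as a block 72, 277, 1 and 63, so the background shares printed with the members depend on the fit. Over the 4 times the block gave 654 genes (1134 without it). Between times, the fit of only the compared groups gave 906 genes for CIE mice from 8 h to 72 h (577 with all arrays), 0 for each Ctrl step (83, 25 and 18) and 1 for the change of effect from 0 h to 8 h (6). The block gave 338 for CIE mice from 0 h to 8 h (536), 3 and 0 for the first and last Ctrl steps, and 2 and 0 for the changes of effect from 0 h to 8 h and from 8 h to 72 h (6 and 2). Without dim probesets these 2 changes gave 15 and 1, and CIE mice from 72 h to 7 d gave 1 (3). A fit of the compared groups only is the same as the fit of all arrays for the test over 4 times and has no value of its own. No paired analysis was possible because the labels give every mouse a number of its own, and the array sets, which were found from the values, served as the block instead.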
